A study of Mus musculus with 4 samples.

Results

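The reproductive homeobox genes, Rhox, form a tandem cluster on the mouse X chromosome. They were taken as the rows of the expression table whose gene symbol begins with Rhox, which gave 31 of 23420 genes. No expression value entered that choice. The cluster spans 0.916 Mb in GRCm38, from Rhox1 to Rhox13 (chrX:37213804-38129967).

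Rhox genes encode homeodomain transcription factors that are made mainly in the testis, epididymis, ovary and placenta. The cluster is usually read as 3 blocks, alpha (Rhox1 to Rhox4), beta (Rhox5 to Rhox9) and gamma (Rhox10 to Rhox13). In the mouse the alpha block has been duplicated, so that Rhox2, Rhox3 and Rhox4 copies follow each other in units. In pachytene spermatocytes the X and Y chromosomes are silenced by meiotic sex chromosome inactivation, a process driven by the kinase ATR and the DNA damage response.

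The libraries were made from wild-type C57BL/6 mice of 23 weeks. Pachytene spermatocytes were sorted by fluorescence from the testis of 1 mouse for each replicate and split between the conditions. They were held for 24 h either in the solvent DMSO (Ctrl, n = 2) or in 10 µM AZ20, an inhibitor of ATR (n = 2), and 15000 cells of each culture went into a library. The culture temperature was 34 °C in the sample labels and 32 °C in the methods. No gene was deleted in either group, and the comparison asked what blocking ATR does to silenced genes once pachytene has been reached.

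Levels are in TPM, read numbers scaled by gene length and library total, so levels of different genes can be set side by side. This holds less well for near-identical copies, since only reads with a unique alignment were counted. Reads behind each TPM were recovered as whole numbers, and the estimated depth over all genes was 15227748 and 17269575 reads for the Ctrl libraries, and 21959030 and 20136355 reads for those with AZ20. All 10 pachytene markers were expressed, with summed levels of 3962 to 5332 TPM, although Hist1h1t, the testis linker histone, was listed at 0 to 1.52 TPM. The 14 Sertoli cell markers summed to 2.97 to 5.40 TPM, with Sox9, Wt1, Trf, Fshr and Shbg at 0 in every library. Among them Dhh (1.34 to 1.68 TPM) and Vim (0.594 to 1.70 TPM) had means above 1 TPM. Gata4, Clu, Aard and Tsx had reads with AZ20 only, at most 1.27 TPM. Markers of Leydig cells and macrophages summed to at most 2.31 TPM, and those of spermatogonia to 43.4 and 55.4 TPM in Ctrl and 54.6 and 75.5 TPM in AZ20. Most of the spermatogonia sum was Id4 (34.2 to 60.5 TPM), while Stra8 and Dmrt1 were at 0 in every library. Round spermatid markers summed to 365 and 149 TPM in Ctrl and to 771 and 251 TPM in AZ20, with 0 of 6 called by limma (0 at an unadjusted p under 0.05). Their part in the results below was not tested. In bulk libraries, fewer cells with a transcript and less transcript in each cell cannot be told apart.

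Several Rhox copies are nearly the same in sequence, some also before their starts, and this bears on how far reads can be assigned to 1 copy. The 250 bases before the RefSeq start of 5 members are printed 5′ to 3′ on the gene's strand (GRCm38.p6), with each CG pair, the site of DNA methylation in mammals, in capitals. Rhox2d, Rhox3f and Rhox4e stand for the repeated copies, Rhox3h for a pair of identical sequences, and Rhox13 for the far end of the cluster. Their windows are chrX:37493160-37493409 on the plus strand for Rhox2d, chrX:37581102-37581351 on the plus strand for Rhox3f, chrX:37668765-37669014 on the minus strand for Rhox3h, chrX:37557162-37557411 on the plus strand for Rhox4e and chrX:38120590-38120839 on the plus strand for Rhox13.
Rhox2d: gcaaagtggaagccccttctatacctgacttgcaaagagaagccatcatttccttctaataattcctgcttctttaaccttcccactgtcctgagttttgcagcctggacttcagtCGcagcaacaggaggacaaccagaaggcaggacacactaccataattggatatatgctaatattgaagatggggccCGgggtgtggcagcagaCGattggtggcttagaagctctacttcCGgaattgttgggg
Rhox3f: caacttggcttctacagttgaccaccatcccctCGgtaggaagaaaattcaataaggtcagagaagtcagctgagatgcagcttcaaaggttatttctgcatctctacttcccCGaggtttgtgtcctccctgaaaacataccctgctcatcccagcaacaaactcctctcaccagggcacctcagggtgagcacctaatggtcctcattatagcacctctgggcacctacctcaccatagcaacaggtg
Rhox3h: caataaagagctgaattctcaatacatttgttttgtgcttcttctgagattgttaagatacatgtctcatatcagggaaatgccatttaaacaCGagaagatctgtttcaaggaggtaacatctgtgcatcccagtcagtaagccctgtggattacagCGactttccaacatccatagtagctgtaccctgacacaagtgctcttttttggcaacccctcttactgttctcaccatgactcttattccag
Rhox4e: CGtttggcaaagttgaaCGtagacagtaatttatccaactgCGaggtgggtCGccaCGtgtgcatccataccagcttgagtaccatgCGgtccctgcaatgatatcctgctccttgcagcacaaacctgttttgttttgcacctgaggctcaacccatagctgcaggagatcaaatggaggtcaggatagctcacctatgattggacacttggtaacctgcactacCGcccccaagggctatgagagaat
Rhox13: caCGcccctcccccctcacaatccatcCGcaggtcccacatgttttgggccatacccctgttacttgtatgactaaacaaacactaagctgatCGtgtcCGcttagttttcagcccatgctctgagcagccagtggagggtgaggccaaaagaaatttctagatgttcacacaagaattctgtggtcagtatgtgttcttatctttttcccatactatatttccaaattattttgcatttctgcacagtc

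A window was found for 25 of the 31 members, among 32851 RefSeq windows of all genes. The windows use RefSeq starts, while the gene spans given in the text are those of GENCODE. The windows of Rhox3c, Rhox3e, Rhox3f and Rhox3g-ps lie inside their GENCODE spans. That of Rhox5 lies far before its span. The members held 0 to 8 CG pairs, with a median of 4 against 6 over all windows. Rhox4 copies held 4 to 7, Rhox2 copies 3 to 6 and Rhox3 copies 1 to 3, while Rhox1 held 0. The Rhox3a window was identical to that of Rhox3h in all its bases, and the windows of Rhox3e and Rhox3f were 99.6% identical. Rhox2 windows were 81.2% to 99.6% identical in pairs (median 90.8%, 21 pairs), and Rhox4 windows 75.2% to 97.2% (median 90%, 15 pairs). Rhox3 windows gave lower values, 47.6% to 100% with a median of 54.4% over 15 pairs. Where the annotated starts of copies are shifted, the value falls even if the overlapping bases match. The Rhox2b window holds the Rhox2a sequence from a later base on, a pair at 91.2%. The first part of the Rhox3g-ps window nearly matches the end of the Rhox3f window, a pair at 47.6%. These values therefore measure the offset of the starts as well as the sequence.

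Short motifs in these windows went with the subfamily. The letters CCGGAA, the core of sites for Ets factors such as GABP, were found on either strand in 8 member windows, those of the 7 Rhox2 copies with a window and of Rhox5, against 12.03% of all windows. The E-box CACGTG was found in 4 windows, all of Rhox4 copies (Rhox4b, Rhox4e, Rhox4f and Rhox4g), against 6.02% of all windows. TATAAA was found in 1 member window, that of Rhox12, against 12.4% of all, and the cyclic AMP response element TGACGTCA in 0, against 1.55% of all. Copies of a subfamily share much of this sequence, so their windows are not independent, and a match also depends on where the annotated start lies. A match of letters is a description of the sequence, and whether transcription began at these annotated starts was not measured.

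With DMSO the cluster was close to silent. Its 31 genes summed to 2.43 and 2.70 TPM, from 21 and 26 reads. Of the 31 members, 22 were at 0 in both Ctrl libraries and 27 had 3 reads or fewer in each. Rhox11 (1.35 and 0.646 TPM) and Rhox3f (0.833 and 0.416 TPM) were the best measured of them, with 17 and 11 reads over both libraries. With AZ20 the sum was 446 and 422 TPM, from 5763 and 4924 reads, a ratio of 169 to Ctrl (184 and 156 in the replicate pairs). Both AZ20 libraries lay far above both Ctrl libraries, and the exact permutation test, two-sided, gave its smallest possible p of 0.333 with 2 libraries against 2. The share of all reads on genes that fell on Rhox genes was 0.000138% and 0.000151% in Ctrl (95% Wilson intervals 9.02e-05 to 0.000211 and 0.000103 to 0.000221) and 0.0262% and 0.0245% in AZ20 (0.0256 to 0.0269 and 0.0238 to 0.0251). These intervals cover counting error only. Rhox genes took 0.670% and 0.921% of all X-linked TPM in Ctrl and 4.68% and 4.56% in AZ20.

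**Figure D1:**
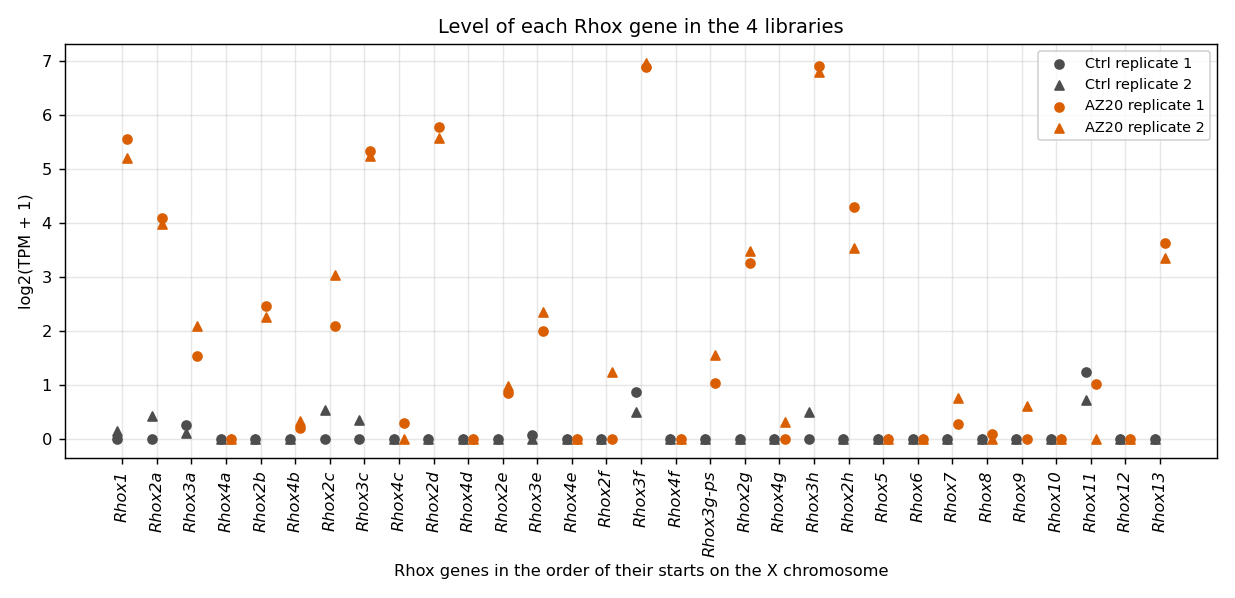
Level of each of the 31 Rhox genes as log2(TPM + 1) (vertical axis), ordered by position on the X chromosome (horizontal axis), with 1 point for each of the 2 Ctrl (grey) and 2 AZ20 (orange) libraries. The AZ20 points of Rhox1, most Rhox2 and Rhox3 copies and Rhox13 stand well above their Ctrl points, while all Rhox4 copies stay near 0 in the 4 libraries.

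Genes were tested with limma on log2(TPM + 1) where the mean was above 1 TPM in Ctrl or AZ20, and called with at least a 2-fold change and an adjusted p under 0.05. This tested 15 of the 31 members, and 12 were called higher with AZ20, while 2.28% of all 10316 genes tested and 63.3% of the 341 X-linked genes tested were called higher. Limma called 0 members lower (0 at an unadjusted p under 0.05, and 0 with voom on the recovered reads), where 0.0485% of all genes tested were called lower. All but Rhox11 entered the test through their AZ20 level, so the number called is a description and not support. With a pseudocount of 0.1, 11 of the 12 calls were kept (2.13% of all genes called higher), and with 0.01, 7 were kept (1.66%), while Rhox2a, Rhox2c, Rhox3c, Rhox3e and Rhox3h lost theirs. Without either Ctrl library 9 members were called, and without either AZ20 library 0, with adjusted p of 0.0791 or more. The median change of the tested members was 3.49 on the log2(TPM + 1) scale, against 2.61 for X-linked genes and 0.07 for all genes tested. Both AZ20 libraries exceeded both Ctrl libraries in 14 of the 15 tested members, as they did in 91.2% of X-linked and 26.4% of all genes tested. Over all 31 members, 12 went from 3 reads or fewer in both Ctrl libraries to more than 3 in both AZ20 libraries, as 2.31% of all genes and 23.6% of X-linked genes did.

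**Figure D2:**
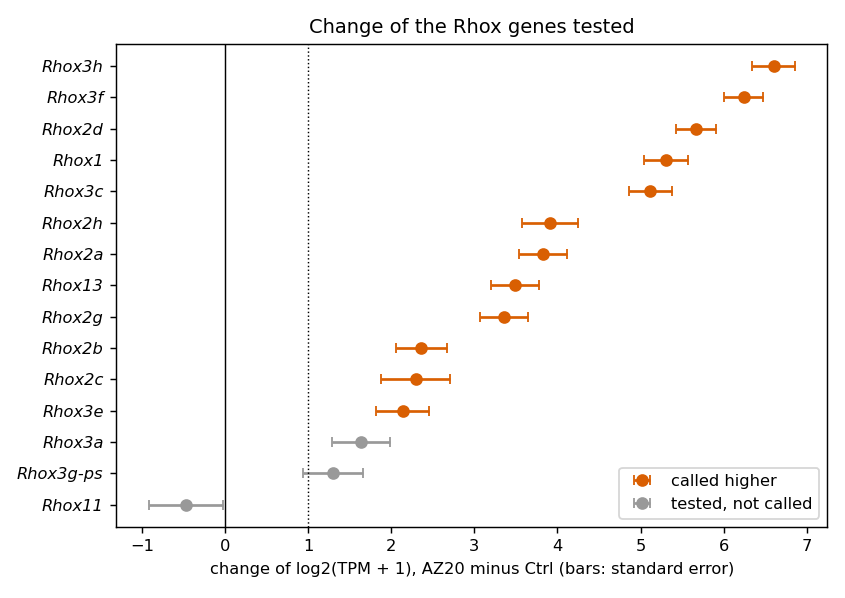
Change of the 15 Rhox genes tested (vertical axis), as log2(TPM + 1) in AZ20 minus Ctrl with its standard error (horizontal axis, n = 2 libraries a group); the dotted line marks a 2-fold change. The 12 genes called higher (orange) run from Rhox3e to Rhox3h at 6.60, and Rhox11 lies below 0 at -0.47.

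Rhox1 stands alone at the start of the cluster (chrX:37213804-37222258, minus strand) and its transcript has no close copy. It was at 0 and 0.0983 TPM in Ctrl, from 0 and 1 reads, and at 45.7 and 35.7 TPM in AZ20, from 586 and 413 reads. The groups did not overlap, and the change was 5.30 ± 0.26 (log2(TPM + 1) scale, SE, adjusted p = 6.35e-05). In pooled reads scaled to the library totals the ratio was 781, with an exact 95% counting interval of 140 to 30878, since it rests on 1 Ctrl read.

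The Rhox2 genes, homeobox copies repeated through the alpha block, gained transcripts in most positions. Summed over its 8 copies, Rhox2 was at 0 and 0.777 TPM in Ctrl and 105 and 95.1 TPM in AZ20. The change of the sum was 6.24 ± 0.32 (adjusted p = 7.28e-05), in a fit where 2.17% of genes were called higher. The sum depends on the copy a counted read was given to only through the length of that copy. Of the 8 copies, 6 were tested and all 6 were called higher.

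Rhox2d (chrX:37493428-37497623) was the highest of the Rhox2 copies. It was at 0 TPM in both Ctrl libraries and at 53.6 and 46.4 TPM in AZ20, from 620 and 484 reads. The change was 5.67 ± 0.24 (adjusted p = 4.98e-05), and the reads were at least 143-fold higher against a floor of 3 reads in each Ctrl library.

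Rhox2a was at 0 and 0.332 TPM in Ctrl and at 15.99 and 14.8 TPM in AZ20 (change 3.83 ± 0.29, adjusted p = 4.18e-04). Rhox2h was at 0 TPM in both Ctrl libraries and at 18.5 and 10.6 TPM in AZ20 (3.91 ± 0.34, adjusted p = 8.53e-04). Rhox2g was at 0 in both and at 8.51 and 10.1 TPM (3.36 ± 0.29, adjusted p = 8.13e-04). In reads, Rhox2h was at least 40.7-fold and Rhox2g at least 26.7-fold higher than the floor, and no AZ20 value of these 3 copies overlapped a Ctrl value.

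Rhox2b and Rhox2c lay lower. Rhox2b was at 0 TPM in both Ctrl libraries and at 4.52 and 3.81 TPM in AZ20, from 50 and 38 reads (2.36 ± 0.31, adjusted p = 0.00769). This call was lost with voom on the recovered reads (adjusted p = 0.0664), which called 10 members higher, all among the 12, and 2.21% of all genes. With voom and the replicate block, where 3.06% of all genes were called higher, the call was kept (adjusted p = 0.0151). It was lost without any 1 of the 4 libraries (0.0578 to 0.0922). Rhox2c was at 0 and 0.445 TPM in Ctrl and at 3.27 and 7.14 TPM in AZ20 (2.29 ± 0.41, adjusted p = 0.0402). It shares part of its span with Rhox3c on the same strand, and its call was lost with a pseudocount of 0.1 (adjusted p = 0.116), with voom (0.226, or 0.0431 with the block), with no filter (0.201), with quantile normalization (0.110), and without any 1 of the 4 libraries (0.179 to 0.364).

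Rhox2e and Rhox2f stayed below the level needed for the test. Rhox2e was at 0 in both Ctrl libraries and at 0.795 and 0.978 TPM in AZ20, from 9 and 10 reads. Rhox2f was at 0 in 3 libraries and at 1.37 TPM, from 14 reads, in AZ20 replicate 2 alone.

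The Rhox3 genes carried most of the gain, 64.8% of all Rhox TPM in AZ20. Their 6 rows summed to 1.07 and 1.18 TPM in Ctrl and 282 and 280 TPM in AZ20, a change of 7.05 ± 0.20 (adjusted p = 2.51e-05). All 6 were tested and 4 were called higher.

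Rhox3f (chrX:37580992-37585496, plus strand) and Rhox3h (chrX:37657688-37668764, minus strand) were the highest members of the cluster. Rhox3f was at 0.833 and 0.416 TPM in Ctrl and at 118 and 124 TPM in AZ20, from 1430 and 1355 reads (6.24 ± 0.24, adjusted p = 3.81e-05). Rhox3h was at 0 and 0.412 TPM in Ctrl and at 119 and 110 TPM in AZ20, from 1818 and 1521 reads (6.60 ± 0.26, adjusted p = 4.35e-05). Read ratios were 198 for Rhox3f (counting interval 110 to 397) and 522 for Rhox3h (223 to 1609). The AZ20 values of the pair overlap, and their mean levels ranked 19 and 21 among 1031 X-linked genes.

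Rhox3c was at 0 and 0.268 TPM in Ctrl and at 39.5 and 36.8 TPM in AZ20 (5.12 ± 0.26, adjusted p = 6.85e-05). Rhox3e was at 0.0510 and 0 TPM in Ctrl and at 2.97 and 4.12 TPM in AZ20 (2.14 ± 0.32, adjusted p = 0.0167). The Rhox3e row is uncertain. Its values imply a length of 1944 bases, where its annotated transcript has 648, and every stretch of that transcript also occurs in the annotated copy Rhox3a2, so reads of more than 1 copy may lie in it. Its call was lost with no filter (adjusted p = 0.0511), with quantile normalization (0.0691) and without any 1 of the 4 libraries (0.0932 to 0.134).

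Rhox3a and Rhox3g-ps were tested and not called. Rhox3a was at 0.189 and 0.0827 TPM in Ctrl and at 1.90 and 3.27 TPM in AZ20 (1.63 ± 0.35, adjusted p = 0.0916). With the replicate number as a block, where 4.11% of all genes were called higher, its adjusted p was 0.00382, but with voom and the block it was 0.108. It was also called with no trend (0.0437) and with a filter on each library (0.0290). Rhox3g-ps is a pseudogene by its name, but was matched to Rhox3g, listed as protein-coding, in the annotation. Its level was 0 in both Ctrl libraries and 1.05 and 1.94 TPM in AZ20 (1.29 ± 0.36, adjusted p = 0.242, or 0.0555 with the block). Both AZ20 values of each gene lay above both Ctrl values.

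The Rhox4 genes, copies of a homeobox gene known from embryonic stem cells and placenta, did not reach the level needed for the test. All 7 copies had 3 reads or fewer in every library. Rhox4a, Rhox4d, Rhox4e and Rhox4f were at 0 in all 4 libraries. Rhox4b had 2 and 3 reads, Rhox4c 3 and 0 and Rhox4g 0 and 3 in the AZ20 libraries, with none in Ctrl. Their sum was 0 TPM in both Ctrl libraries and 0.384 and 0.492 TPM in AZ20. At the depth of the shallowest library a count of 0 allows up to 3 reads, or 0.304 to 0.336 TPM for these copies. That limit holds only for reads that could be counted, and with 5.54% to 57.6% of their transcript windows unique, higher levels could also have gone uncounted. Over the whole cluster 12 of the 31 members had 3 reads or fewer in every library. This is common, since 35.3% of all genes and 46.2% of X-linked genes had 3 reads or fewer in each.

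The Rhox4 copies are interleaved with Rhox2 and Rhox3 copies, some called higher and some not. Measured at gene midpoints from the start of the cluster, Rhox2g lies at 427 kb, Rhox4g at 435 kb, Rhox3h at 449 kb and Rhox2h at 457 kb. Their mean AZ20 levels in that order were 9.30, 0.117, 114 and 14.6 TPM. Rhox4d at 303 kb was at 0, between Rhox2d at 282 kb with 50.02 TPM and Rhox2e at 322 kb with 0.886 TPM. Rhox4e at 346 kb was followed by Rhox2f at 360 kb with 0.685 TPM, and Rhox4f at 391 kb by Rhox3g-ps at 412 kb with 1.49 TPM, neither called. The difference between subfamilies was not tested, because no Rhox4 copy passed the filter.

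Because only unique alignments were counted, each transcript was cut into windows of 150 bases, the length of each read of a pair. The windows that occur in no other annotated gene were counted, and the mate of a read was not considered. All windows were unique in Rhox1 and Rhox2h, 97.9% in Rhox2d and 97.8% in Rhox2g. In Rhox3f, Rhox3c and Rhox3h 87.6%, 71.9% and 71.0% were unique. Only 6.53% were unique in Rhox3a and 0% in Rhox3e, which share 93.5% and 100% of their windows with Rhox3a2. Rhox3e still had 84 and 105 reads in AZ20, so the unique share does not bound the reads that could be counted. The levels of Rhox3a and Rhox3e, and the sum over Rhox3, can miss reads that fit several copies.

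The unique shares of 5 of the 7 Rhox4 copies lay below those of every Rhox2 copy called higher, and those of Rhox4c (50.7%) and Rhox4d (57.6%) lay among them. From 25.9% to 57.6% of windows were unique in the Rhox4 copies other than Rhox4a (5.54%), against 49.5% in Rhox2b, 53.8% in Rhox2a and 61.3% in Rhox2c. Counted for each 100 unique windows, both AZ20 libraries together gave 0 to 2.62 reads in the Rhox4 copies. The same measure was 74.6 reads in Rhox2a, 27.3 in Rhox2b, 29.3 in Rhox2c and 12.7 in Rhox2e, where 23.1% of windows were unique. It was 32.4 in Rhox2g, 50.5 in Rhox2h, 210 in Rhox2d and 125, 191, 465 and 520 in Rhox3a, Rhox3c, Rhox3f and Rhox3h. Rhox2f at 2.55 and Rhox3g-ps at 4.42 were near the Rhox4 copies, although 84.3% and 64.5% of their windows were unique. Over the 14 Rhox2 and Rhox3 rows the Spearman correlation of the unique share with the mean AZ20 level was 0.50, and over the 21 rows that include Rhox4 it was 0.61, a description over copies that share libraries and sequence. The part of lost shared reads in the low Rhox4 values was not tested.

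**Figure D3:**
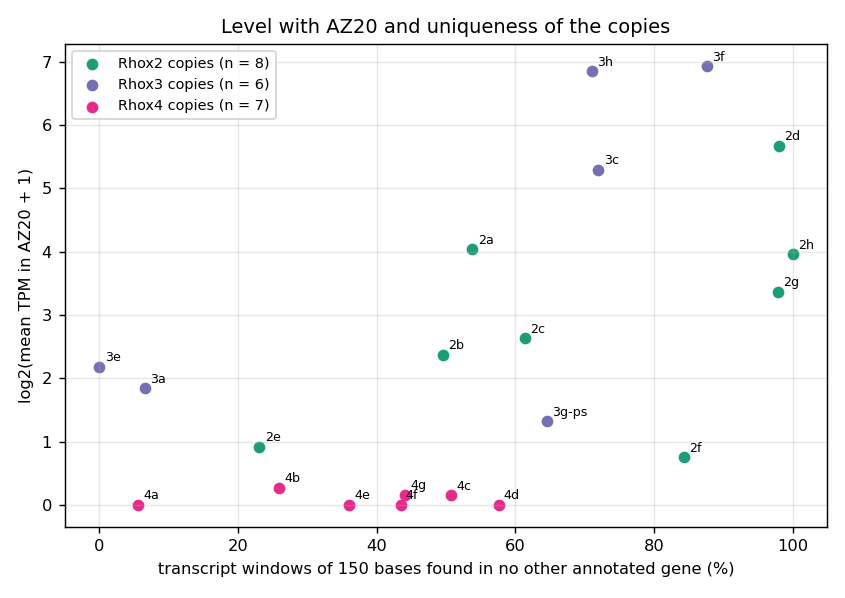
Mean AZ20 level of each Rhox2, Rhox3 and Rhox4 copy as log2(mean TPM + 1) (vertical axis) against the share of its 150-base transcript windows found in no other annotated gene (horizontal axis, %); each point is 1 copy, named by number and letter. Rhox4 copies (pink) lie near 0 at unique shares up to 57.6%, where Rhox2 and Rhox3 copies of like or lower shares lie higher.

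Copies with the same sequence before the RefSeq start had different levels. Rhox3a and Rhox3h have the same 250 bases and mean AZ20 levels of 2.59 ± 0.968 and 114 ± 6.13 TPM (SD, n = 2). Rhox3e and Rhox3f, 99.6% identical there, were at 3.54 ± 0.809 and 121 ± 4.17 TPM, although their windows lie inside the GENCODE spans of these genes. In both pairs the lower copy is the one with few unique windows. The Rhox2a, Rhox2c and Rhox2e windows were 99.6% identical between Rhox2a and each of the other two, with mean AZ20 levels of 15.4 ± 0.844, 5.20 ± 2.74 and 0.886 ± 0.130 TPM. Here Rhox2e had both the lowest unique share (23.1%) and the lowest level. Rhox2c had more unique windows than Rhox2a (61.3% against 53.8%) and a lower mean level. The part of the unique shares in these levels was not tested.

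The beta block, Rhox5 to Rhox9, was almost without reads in both groups. Rhox5, a gene known for androgen-driven expression in Sertoli cells, and Rhox6 were at 0 in all 4 libraries. Rhox8, also known from Sertoli cells, had 1 read in 1 AZ20 library. Rhox7 (matched to Rhox7a in the annotation) had 0 reads in Ctrl and 3 and 9 in AZ20, or 0.210 and 0.698 TPM. Rhox9 had 6 reads in AZ20 replicate 2 and none elsewhere. Between 93.0% and 100% of the windows of these 5 genes were unique, so few or none of their windows are shared with other annotated genes. A count of 0 for Rhox5 allows up to 0.470 TPM in the shallowest library.

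The gamma block, Rhox10 to Rhox13, held 1 gene that rose. Rhox13, a homeobox gene of germ cells at the far end of the cluster (chrX:38121219-38129967, plus strand), was at 0 TPM in both Ctrl libraries and at 11.4 and 9.18 TPM in AZ20, from 207 and 151 reads. The change was 3.49 ± 0.29 (adjusted p = 6.90e-04), and the reads were at least 46.2-fold higher than the floor. Rhox10, a gene known for its part in spermatogonial stem cells, and Rhox12 were at 0 in every library.

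Rhox11 differed in its levels from the other tested members. It was at 1.35 and 0.646 TPM in Ctrl, from 11 and 6 reads, and at 1.03 and 0 TPM in AZ20, from 12 and 0 reads. The groups overlapped, and the change was -0.47 ± 0.45 (adjusted p = 0.840). The ratio of its reads was 0.552, with a counting interval of 0.240 to 1.23, and without AZ20 replicate 2 the change was 0.04. Its Ctrl mean of 1.0002 TPM was only just above the filter.

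In order of mean AZ20 level, as deposited from unique alignments, Rhox3f (121 TPM) and Rhox3h (114) led, followed by Rhox2d (50.02), Rhox1 (40.7), Rhox3c (38.1), Rhox2a (15.4), Rhox2h (14.6), Rhox13 (10.3) and Rhox2g (9.30). The 2 values of Rhox2d lay below those of Rhox3f and Rhox3h and above those of Rhox1, of which the higher was close, at 45.7 TPM. The 2 values of Rhox1 overlapped those of Rhox3c, those of Rhox2h spanned those of Rhox2a, and those of Rhox2g overlapped those of Rhox13. The order was different in reads for each 100 unique windows, where Rhox3h (520) came before Rhox3f (465), Rhox3c (191) before Rhox1 (136) and Rhox3a (125) before Rhox2a (74.6). The place of Rhox3a is uncertain, since it rests on 74 AZ20 reads and only 6.53% of its 904 windows are unique.

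The cluster sits among X-linked genes that were also higher with AZ20. Within 1 Mb of its outer genes, or between them, lie 31 other genes of the table, and 17 of these were tested. Of the 17, 12 were called higher and 0 lower, with changes from 0.62 to 7.53 (median 2.92, log2(TPM + 1) scale). All but Gm9 and Ndufa1 entered the test through their AZ20 level, so these values are a description and not support. Without Ctrl replicate 2 the neighbours called were 7, and without either AZ20 library 0. Without Rhox genes, 62.6% of X-linked genes tested were called higher.

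Gm9, 2.76 kb before the cluster, was at 0.477 and 1.77 TPM in Ctrl and at 414 and 336 TPM in AZ20 (7.53 ± 0.32, adjusted p = 4.98e-05), above every Rhox gene in AZ20. Rnf113a1, a gene for a ring finger protein, was at 0 in both Ctrl libraries and at 6.80 and 6.04 TPM in AZ20 (2.89 ± 0.29, adjusted p = 0.00197). Ndufa1, which encodes a subunit of mitochondrial complex I, was at 124 and 152 TPM in Ctrl and at 179 and 251 TPM in AZ20 (0.62 ± 0.22, adjusted p = 0.414, not called). Its transcript was thus abundant in Ctrl, 22.6 kb from the cluster, and whether the gene was being transcribed there was not measured.

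Further out on the same side, Nkap (1.81, adjusted p = 0.0411) and Upf3b (2.92, adjusted p = 0.0170) were called higher. Nkap was at 0 in both Ctrl libraries and at 2.21 and 2.81 TPM in AZ20, and its call was lost with quantile normalization (adjusted p = 0.153) and without any 1 of the 4 libraries (0.0981 to 0.203). Upf3b, a factor of nonsense-mediated decay, was at 1.54 and 0.158 TPM in Ctrl and at 9.08 and 15.6 TPM in AZ20. Its call was lost with pseudocounts of 0.1 and 0.01 (adjusted p = 0.104 and 0.206), with no filter (0.159), without Ctrl replicate 2 (0.129) and without either AZ20 library (0.423 and 0.546).

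Beyond Rhox13, the nearest tested gene was Lamp2, a lysosomal membrane protein gene 271 kb away, at 0.0241 and 0.169 TPM in Ctrl and 7.03 and 8.36 TPM in AZ20 (2.99 ± 0.29, adjusted p = 0.00168). Cul4b, a ubiquitin ligase scaffold, rose by 4.32 ± 0.34 (adjusted p = 5.34e-04), from 0.902 and 0.0343 TPM to 26.3 and 27.9 TPM, and lost its call with a pseudocount of 0.01 (adjusted p = 0.119). Mcts1 (1.14, adjusted p = 0.321) and C1galt1c1 (1.62, adjusted p = 0.430) were not called, and C1galt1c1 had an adjusted p of 0.0111 with the block. The 2 other genes inside the cluster, 4930525M21Rik and 4930430D24Rik, had 2 reads or fewer in every library.

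**Figure D4:**
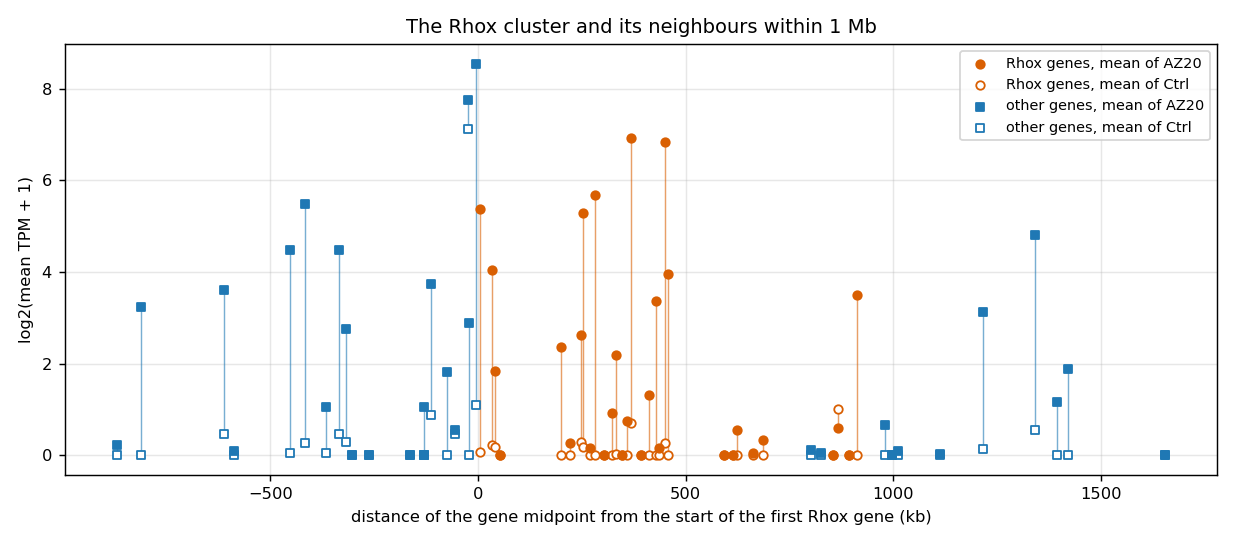
Mean level as log2(mean TPM + 1) (vertical axis) of Rhox genes (orange circles) and the 31 other genes within 1 Mb (blue squares), in Ctrl (open) and AZ20 (filled), against the distance of the gene midpoint from the start of the cluster (horizontal axis, kb); lines join the 2 means of a gene (n = 2 libraries each). The gains lie in the alpha block, at Rhox13 and in genes on both sides, with few or no reads for the beta block and the 2 other genes inside the cluster.

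Other homeobox genes were set beside the cluster. Of the X-linked homeobox genes outside it that are reported here, 1 entered the test, through its AZ20 level, and was called higher. That gene was Esx1, known from placenta and spermatogenic cells, at 0 and 0.271 TPM in Ctrl and 16.7 and 23.4 TPM in AZ20 (4.205 ± 0.30, adjusted p = 3.33e-04). Pou3f4, Cdx4, Tgif2lx1 and Tgif2lx2 were at 0 in every library, and Hdx had 12 reads in 1 AZ20 library only. Of 27 autosomal homeobox genes in the table, 6 were tested and limma called 0 (1 at an unadjusted p under 0.05), with a median change of -0.15. That 1 was Hesx1, at 2.70 and 1.296 TPM in Ctrl and 0.181 and 0.335 TPM in AZ20 (-1.22 ± 0.37, adjusted p = 0.318). The most abundant, Pbx4, was at 270 and 362 TPM in Ctrl and 361 and 291 TPM in AZ20, values that overlap.

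Genes with a known part in silencing or activating Rhox genes, among them DNA methyltransferases, linker histones and members of the Polycomb complex PRC1.6, gave 13 tested of 24. No linker histone gene passed the filter for the test, and neither did Dnmt3b, Dnmt3l or E2f6. Limma called 0 of the 13 (1 at an unadjusted p under 0.05), with a median change of 0.20. The maintenance methyltransferase gene Dnmt1 was at 4.35 and 2.83 TPM in Ctrl and 5.65 and 4.61 TPM in AZ20 (0.43 ± 0.29, adjusted p = 0.766). Pcgf6, a defining subunit of PRC1.6, was at 128 and 112 TPM in Ctrl and 129 and 147 TPM in AZ20 (0.20 ± 0.18, adjusted p = 0.827). Gabpb1, the beta subunit of GABP, was the 1 at an unadjusted p under 0.05, at 8.81 and 11.7 TPM in Ctrl and 15.5 and 17.1 TPM in AZ20 (0.63 ± 0.24, adjusted p = 0.480).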

How the data were processed

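RNA was measured in 4 libraries of sorted pachytene spermatocytes, 2 of Ctrl and 2 of AZ20. The authors trimmed reads (Trimmomatic 0.39), aligned them to GRCm38 (STAR 2.5.4b), kept unique alignments, counted them on refGene (featureCounts 2.0.1) and deposited TPM, 1 column for each library, each summing to 1000000.

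Here limma 3.58.1 (R 4.3.3) with an intensity trend was fitted to log2(TPM + 1) of 10316 genes, two-sided, with Benjamini-Hochberg adjustment over all of them. Differences are on this scale and understate changes of low genes. All members were accounted for, and neighbours were named as those inside the cluster and the 5 nearest on each side above 1 TPM (4 on the far side). The members and lists were chosen with earlier results of these data known. A gene of the lists is not reported here.

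Reads were recovered from TPM as whole numbers (within 0.0001 reads) for 16843 of 16857 genes above 0. A factor common to all 4 libraries cannot be seen in TPM, so the implied gene length was taken near the GENCODE M21 length, a rule settled after a comparison with mean read numbers of the study. For Rhox3g-ps the reads may be low by a whole factor. On simulated TPM 97.7% of genes were recovered exactly. Ratios of reads are scaled to library totals; against Ctrl at 0 they use 3 reads in each Ctrl library, otherwise an exact 95% Clopper-Pearson interval. Intervals and floors cover counting error only. Another 92 lines without a symbol were left out.

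Same-numbered libraries came from the cells of 1 mouse, split between the conditions, and deviated together (Pearson r 0.23 over autosomal and 0.18 over X-linked genes tested). P-values measure the spread between the 2 libraries of a group. Alternatives were 2 other pseudocounts, other filters, scalings, voom, the replicate block and leaving out each library.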

Additional observations from a re-analysis of the deposited data

How the results depend on the processing

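The 12 Rhox members called higher became 7 with a pseudocount of 0.01 and 10 to 13 under the other alternatives that kept all libraries, or 9 without either Ctrl library. Leaving out each library in turn gave 0 to 9 members, 0 to 8 neighbours of 12, and 0 to 4 of the 4 sums called (Rhox1, Rhox2, Rhox3, Rhox13). Each of these fits leaves 1 residual degree of freedom. The lowest numbers came without either AZ20 library, where the lone AZ20 library is assumed to vary like the Ctrl pair. Adjusted p then lay at 0.0791 to 0.0902 for Rhox1, Rhox2d, Rhox3f, Rhox3h and Rhox13, whose changes stayed between 3.35 and 6.66. The neighbours called became 7 with a pseudocount of 0.01 and 7 without Ctrl replicate 2. With the replicate number as a block, 13 members were called, all 12 of the unblocked fit and Rhox3a, and 13 neighbours, with C1galt1c1 added. Rhox11 ranged from -0.98 without AZ20 replicate 1 to 0.041 without AZ20 replicate 2, against -0.47 with all libraries, and none of these was called. The ratio of summed TPM ranged from 156 to 184 without 1 library, in 1 pair alone, with an autosomal scaling or without Rhox3f. The 12 members with 3 reads or fewer in every library became 8 or 9 under the stricter limits. Why calls were lost was not tested. Calls of low members rest on few reads, and 2 libraries a group limit the precision.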

Other observations

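The rows of Rhox2c, Rhox2e, Rhox2f and Rhox2h all imply a length of 779 bases, whereas their annotated transcripts have 762, 799, 799 and 779 bases. Rhox13 implies 1254 bases against 876 annotated, and Rhox2d 795 against 685. The refGene models on which reads were counted therefore differ from the annotation used here for sequence windows.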
